A study of Mus musculus with 6 samples.

Results

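Airway surface liquid is set by epithelial ion channels, carriers and water channels, and 9 genes of this machinery were read here in mouse lung: Cftr, Scnn1a, Scnn1b, Scnn1g, Slc5a8, Slc12a2, Atp1b1, Aqp4 and Aqp1. They were taken by symbol from the array's own gene names, with every probe of each gene, which gave 13 of 41144 probes. Of these, 12 passed a filter on dim probes, which kept a probe if the array software called it well above background in 3 or more of the 6 lungs, knockout or not. All 9 genes kept at least 1 probe and were tested among 20245 genes. The samples were lungs of naive (untreated) male mice aged 8 weeks, 3 from Nogo-A/B knockout animals (named 1, 11 and 12) and 3 from wild-type animals (named 11, 12 and 13), each on an Agilent array of its own in 1 colour (Cy3). Nogo-A and Nogo-B are the long membrane proteins made from the reticulon gene Rtn4, and the series is about the part of Nogo in asthma, although these lungs had no asthma model applied. The labels name no Cre driver, strain background or littermate status, and RNA of whole lung mixes all its cell types, so fewer cells of a type and less RNA per cell cannot be told apart.

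In airway epithelium, Cftr opens an apical path for chloride and bicarbonate, and water follows the secreted salt. Chloride enters from the blood side with sodium and potassium through the cotransporter Slc12a2, and the sodium pump keeps the gradient that drives it. In the opposite direction the epithelial sodium channel, built of the subunits Scnn1a, Scnn1b and Scnn1g, takes up sodium and so thins the liquid layer, and it also clears fluid from the alveoli. Slc5a8 carries lactate and other monocarboxylates into cells together with sodium. Aquaporins are water pores, of which Aqp1 is known in capillary endothelium of the lung and Aqp4 in the basolateral membrane of airway epithelium, and Aqp4 also in skeletal muscle fibres.

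The probe sequences of the 3 genes whose readings turn on which probe was used, or on how dim it was, are shown as the array files give them, 5′ to 3′ and on the plus strand of build mm7, with nothing set in capitals because no stretch was singled out. Both Cftr probes are shown because 1 gave a signal on every array and the other on none. The dimmer Scnn1a probe is shown because it ran against the brighter probe of that gene. Of the 60 bases of the Slc5a8 probe the first 30 are shown, as it carries the widest genotype difference of the 9 genes.
Cftr, chr6:18262943-18263002, probe with signal: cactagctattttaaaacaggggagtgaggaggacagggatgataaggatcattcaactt
Cftr, chr6:18208199-18208258, probe at background: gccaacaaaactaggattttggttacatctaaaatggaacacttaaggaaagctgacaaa
Scnn1a, chr6:125369357-125369561, dimmer probe: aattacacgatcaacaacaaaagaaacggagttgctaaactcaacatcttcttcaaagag
Slc5a8, chr10:88487915-88487974, first 30 bases: gctgaacatatgatgtagacacattgggta
The Scnn1a probe has 60 bases but was placed over 205 bases of the genome, so it crosses a gap in that alignment.

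All values are log2 signals relative to the 75th percentile of their array, and the number of arrays limits their precision. The 75th percentile signal ranged from 1146 to 2481 over the arrays, and 68.9% to 78.0% of probes were well above background. The knockout label was checked at the targeted locus, where a probe for the Rtn4 transcript AK047982 averaged -8.34 ± 0.21 in knockout lungs and -2.82 ± 0.41 in wild-type lungs (SD, n = 3 each), at least 14.2-fold lower and at background in all 3 knockout lungs. The 2 brighter Rtn4 probes stayed well above background in all 3 knockout lungs, at -0.54 ± 1.52 and -0.55 ± 1.46, against 1.74 ± 0.48 and 1.80 ± 0.42 in wild-type lungs (SD, n = 3 each), with an adjusted p of 0.9999 in limma for both. Lung markers were present in both groups: the 9 alveolar type 2 markers averaged 5.28 to 5.65 in knockout lungs and 5.07 to 5.42 in wild-type lungs. The arrays stand apart by the day on which they were scanned: knockout 12, wild type 11 and wild type 12 were scanned on day 2, and knockout 1, knockout 11 and wild type 13 on day 1. Arrays correlated at 0.972 to 0.994 within a day and at 0.951 to 0.966 across days, over genes, which are not independent replicates. All arrays of day 2 were on 1 slide that held no other, so day, slide and other differences between these lungs cannot be told apart. Because both days held both genotypes, each genotype difference is also given with scan day as a block.

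The first question was whether these transport genes differed between Nogo-A/B knockout and wild-type lungs. Slc5a8 had the widest difference, with a signal at background in all 3 knockout lungs and above it in all 3 wild-type lungs, and it was the only one of the 9 genes whose groups did not overlap. Groups did not overlap for 4.22% of all genes, and 1.47% were lower in the knockout in this way. After Benjamini-Hochberg adjustment over all 20245 genes, 0 of the 9 were below 0.05 in limma's two-sided test, as were 0.0% of all genes. At an unadjusted p under 0.05 there was 1, Slc5a8, beside 0.958% of all genes in either direction and 0.622% in the lower one. By sign, 5 genes had lower and 4 had higher mean signals in the knockout, with a median log2 difference of -0.00 beside 0.02 over all genes. With scan day as a block 2 were lower and 7 higher, the median was 0.13, and Slc5a8 was again the 1 gene at an unadjusted p under 0.05, beside 2.17% of all genes. Slc5a8 entered the test through its wild-type signal alone, so nothing is read from these counts of 1. The adjusted p was 0.9998 for each of the 9 genes in limma.

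**Figure D1:**
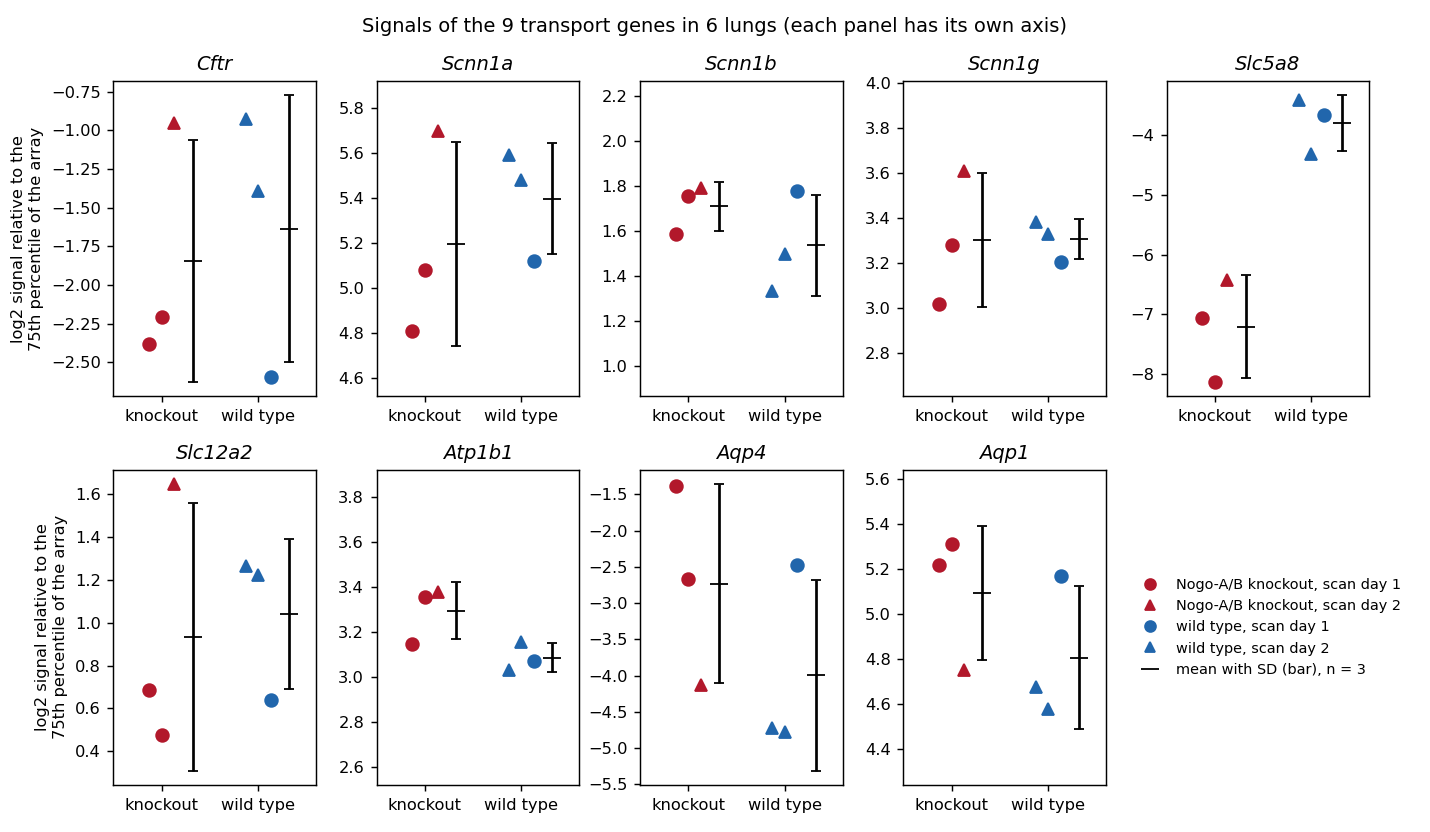
Log2 signal relative to the 75th percentile of the array for the 9 genes, 1 panel a gene with its own vertical axis, Nogo-A/B knockout lungs left of wild-type lungs. Circles are arrays of scan day 1, triangles arrays of scan day 2, and the bar gives the mean and SD of 3 lungs. The groups are separate in the Slc5a8 panel, while the symbols of the 2 scan days are separate in the panels of Cftr, Scnn1a, Scnn1g, Slc12a2, Aqp4 and Aqp1.

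Slc5a8 measured -7.07, -8.14 and -6.43 in knockout lungs 1, 11 and 12, against -3.41, -4.32 and -3.67 in wild-type lungs 11, 12 and 13. Every knockout lung lay below every wild-type lung, and the array software called the probe well above background on 0 of 3 knockout arrays and on 3 of 3 wild-type arrays. The means were -7.21 ± 0.86 in the knockout and -3.80 ± 0.47 in the wild type (SD, n = 3 each). Because the knockout signal was at background, only a bound can be given: in the background-subtracted signals the knockout was lower by at least 7.22-fold. The fitted log2 difference, which is no measured fold, was -3.41 (SE 0.48, 95% interval -4.57 to -2.25), and limma gave a p of 3.33e-04 before and 0.9998 after adjustment. The probe had passed the filter on dim probes through the 3 wild-type lungs alone, where it was high, so a difference was built into its passing and this p is no support for one. Blocking on scan day left it at -3.25 (SE 0.50), and the lungs of day 1 alone gave -3.94 and those of day 2 alone -2.57, where the group with a single array is assumed to vary like the other. Between scan days Slc5a8 differed by 0.49 (SE 0.50). The size varied with the processing. It was -3.47 with quantile normalization alone, and -1.28 when normexp background correction with an offset of 50 came first. In the authors' processed values it was -1.52, so all had the same direction. By detection, 7 genes, or 0.0346% of those tested, were well above background on all 3 wild-type arrays and on no knockout array. Slc5a8 was among them, and AK080804, a transcript of the Rtn4 locus, was another. This pattern is the one through which the Slc5a8 probe passed the filter, so nothing is read from this share.

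The goblet and gland list of airway markers also split between the groups, while the club and ciliated lists did not. Of the 5 club cell markers 0 were lower and 5 higher in the knockout, with a median log2 difference of 0.33. Of the 7 ciliated cell markers 2 were lower and 5 higher, with a median of 0.05. Over the 8 measured goblet and gland markers, the mean level was -4.81 to -1.58 in knockout lungs and 0.21 to 1.08 in wild-type lungs, without overlap. All 8 had lower means in the knockout, with a median log2 difference of -3.28. They differed widely, from Bpifa1 at -9.81 to Spdef at -0.10 (SE 0.19). In limma 5 of them had a p under 0.05 before adjustment, beside 0.622% of all genes in the lower direction, and 0 after it. Slc5a8 was at background in all 3 knockout lungs, so they have no order in it to set beside that of the markers. Over the 5 basal cell markers the mean level was -5.16 to -4.13 in knockout lungs and -4.14 to -3.54 in wild-type lungs, overlapping slightly, with 4 lower and 1 at an unadjusted p under 0.05. The 6 neutrophil markers averaged 0.63 to 2.17 in knockout lungs and 1.50 to 3.35 in wild-type lungs. Their median log2 difference was -0.03 within day 1 and -2.55 within day 2, so the lower level rests on the day 2 lungs. The 4 adipocyte markers averaged -1.91 to -0.39 in knockout lungs and -0.69 to 1.76 in wild-type lungs. All genes of both lists were also lower on average, and the groups overlapped in both list means. Of the single neutrophil genes 1, Ltf, was lower without overlap, as were 1.47% of all genes. An unadjusted p under 0.05 in limma was reached by 3 neutrophil and 2 adipocyte markers. The part of any of these cell types in the Slc5a8 difference was not tested. Slc5a8 is also known in thyroid. Of the thyroid genes, Tshr and Pax8 were too dim to be tested, and thyroglobulin (Tg) differed by 0.02 (SE 0.25), the iodide carrier Slc5a5 by 0.17 (SE 0.27) and Nkx2-1, a factor also active in lung epithelium, by 0.11 (SE 0.14). The part of thyroid RNA was not tested.

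**Figure D2:**
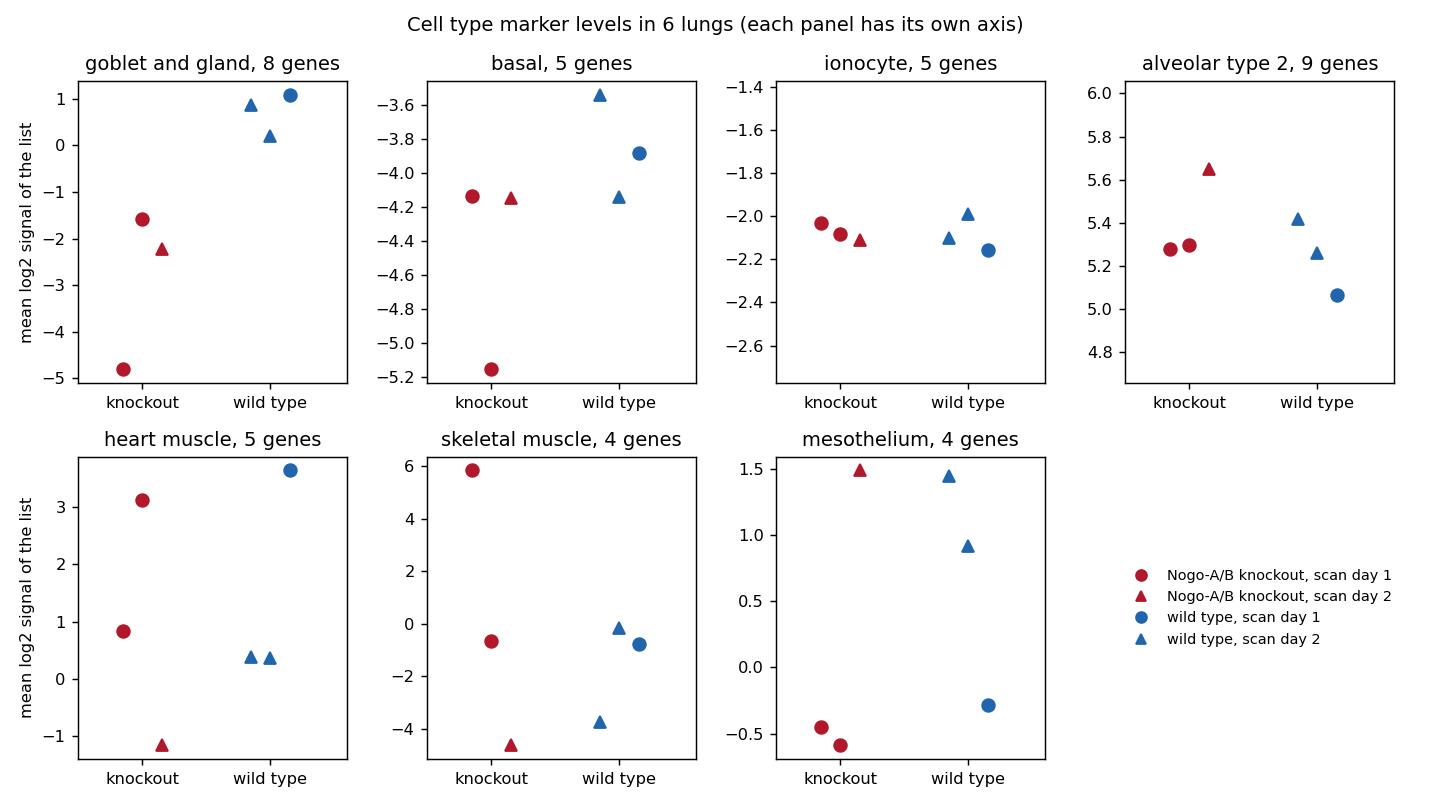
Mean log2 signal, relative to the 75th percentile of the array, of 7 lists of cell type markers, 1 panel a list with its own vertical axis, Nogo-A/B knockout lungs left of wild-type lungs. Circles are arrays of scan day 1 and triangles arrays of scan day 2. The goblet and gland markers separate the groups at -4.81 to -1.58 in knockout lungs and 0.21 to 1.08 in wild-type lungs, while the mesothelial markers separate the scan days.

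Cftr, the chloride channel that is mutated in cystic fibrosis, did not separate the genotypes. Its bright probe measured -2.38, -2.21 and -0.95 in knockout lungs 1, 11 and 12, against -0.93, -1.39 and -2.60 in wild-type lungs 11, 12 and 13. The groups overlapped throughout, and each held both a low and a high level. The difference was -0.21 (SE 0.56), with a 95% interval of -1.57 to 1.15. With scan day as a block it was 0.25 (SE 0.18, interval -0.21 to 0.72), with 0.30 on day 1 alone and 0.21 on day 2 alone, so the sign turned while the interval still held 0. The probe was printed at 10 spots on each array, and the SD over those spots was between 0.02 and 0.12, which measures spot noise within an array and not the spread between lungs, labellings or days. The other Cftr probe was at background on all 6 arrays, with values of -8.72 to -8.61 in knockout lungs and -8.94 to -8.50 in wild-type lungs, and was left untested.

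For Cftr the 6 lungs sorted by scan day instead. The 3 lungs of day 2 lay between -1.39 and -0.93, and the 3 lungs of day 1 between -2.60 and -2.21, without overlap. The difference, day 2 minus day 1 with genotype in the model, was 1.39 (SE 0.18), with an adjusted p of 0.0123 in limma. Of the markers of the ionocyte, the rare airway cell known for its high Cftr, Foxi1 was too dim to be tested, and the other 5 averaged -2.11 to -2.03 in knockout lungs and -2.16 to -1.99 in wild-type lungs. Between the days those 5 did not move together, with a median difference of -0.03. The proton pump subunit Atp6v0d2 differed by 0.96 (adjusted p of 0.0146 in limma), Atp6v1c2 by 0.15, Stap1 by -0.03, Moxd1 by -0.44 and Ascl3 by -0.50. Those other 4 did not pass the threshold, which 10.5% of all genes passed.

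The sodium channel subunits did not differ detectably between the genotypes. Scnn1a, the pore subunit without which the channel carries little current, measured 4.81, 5.08 and 5.70 in knockout lungs 1, 11 and 12, against 5.59, 5.48 and 5.12 in wild-type lungs 11, 12 and 13. The groups overlapped, with the highest and the lowest lung both in the knockout, and the difference was -0.20 (SE 0.28, interval -0.88 to 0.48). With scan day as a block it was -0.01 (SE 0.16).

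Scnn1b, the subunit whose overexpression in mouse airways is known to dry the airway surface, measured 1.59, 1.76 and 1.79 in knockout lungs, against 1.34, 1.50 and 1.78 in wild-type lungs 11, 12 and 13. The ranges overlapped from 1.59 to 1.78, and the difference was 0.17 (SE 0.18, interval -0.27 to 0.62), with -0.11 within day 1 and 0.37 within day 2. Scnn1g measured 3.02, 3.28 and 3.61 in knockout lungs and 3.38, 3.33 and 3.20 in wild-type lungs. All its wild-type values fell inside the knockout range, and the difference was -0.00 (SE 0.20, interval -0.50 to 0.49). For these 3 subunits the intervals reach at most 0.88 from 0 on the log2 scale without the block and at most 0.58 with it, so differences beyond those sizes lay outside the intervals and smaller ones were not resolved.

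The 2 probes of Scnn1a ran in opposite directions. The bright probe had a log2 difference between day 2 and day 1 of 0.58 (SE 0.17) in the fit over probes, and the dimmer probe one of -0.63 (SE 0.21). Neither passed the adjusted threshold in limma (adjusted p of 0.0765 and 0.108), yet for both the days did not overlap, as for 42.2% of all probes tested. Within day 1 the dimmer probe was lower in the knockout by 0.56 on the log2 scale and the bright probe had a difference of -0.17, while within day 2 the values were 0.20 and 0.16. A level of Scnn1a by day therefore depends on the probe chosen, and no genotype difference was detected with either.

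**Figure D3:**
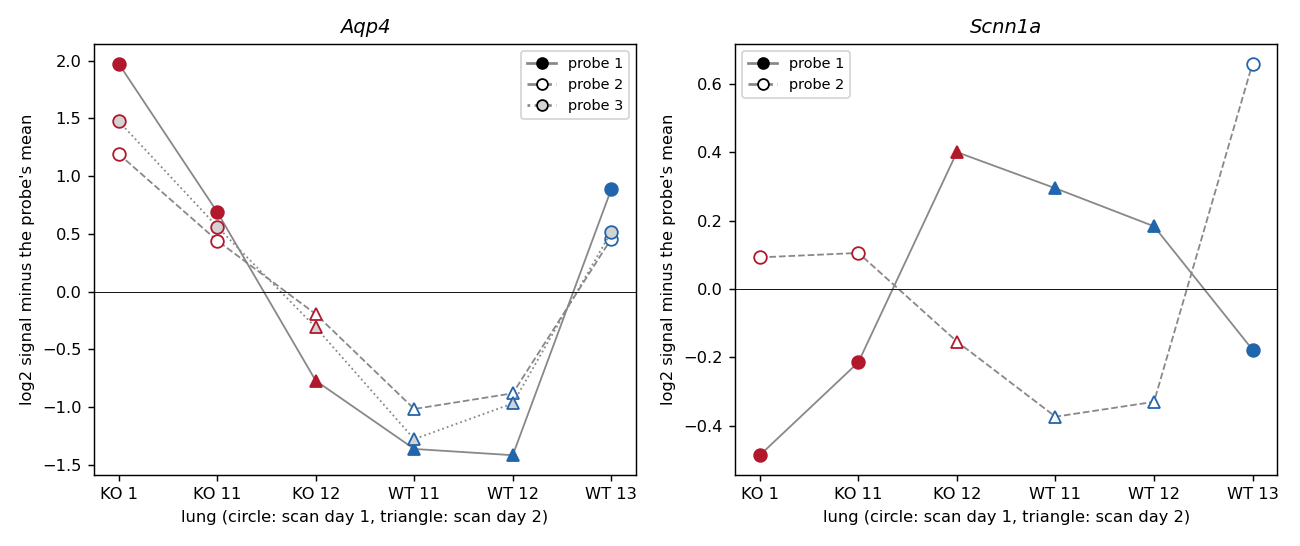
Log2 signal minus the mean of the same probe over the 6 lungs, for the 3 probes of Aqp4 and the 2 tested probes of Scnn1a, with Nogo-A/B knockout lungs (KO, red) left of wild-type lungs (WT, blue). Probe 1 is the brightest of its gene. The Aqp4 probes follow one another over all 6 lungs, while the 2 Scnn1a probes run against each other between scan day 1 (circles) and scan day 2 (triangles).

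Slc12a2, which loads chloride for secretion, measured 0.68, 0.47 and 1.65 in knockout lungs 1, 11 and 12, against 1.27, 1.22 and 0.64 in wild-type lungs 11, 12 and 13. The groups overlapped, and both the lowest and the highest lung were knockouts. The difference was -0.11 (SE 0.36, interval -0.99 to 0.77), and 0.17 (SE 0.17) with scan day as a block. Like Cftr, Slc12a2 was higher on day 2, at 1.22 to 1.65, against 0.47 to 0.68 on day 1, a difference of 0.84 (SE 0.17) with an adjusted p of 0.0416 in limma.

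Atp1b1, the beta subunit that brings the sodium pump to the membrane, was among the steadiest of the 9 genes, with an SD of 0.14 over the 6 lungs. It measured 3.15, 3.36 and 3.38 in knockout lungs, against 3.03, 3.16 and 3.07 in wild-type lungs 11, 12 and 13. Only knockout 1 lay within the wild-type range. The difference was 0.21 (SE 0.16, interval -0.17 to 0.59) and 0.23 (SE 0.14) with scan day as a block, with 0.18 within day 1 and 0.28 within day 2, positive in each but not past the threshold in limma.

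Aqp4 had the widest spread after Slc5a8, with an SD of 1.39 over the 6 lungs. It measured -1.39, -2.67 and -4.14 in knockout lungs 1, 11 and 12, against -4.73, -4.78 and -2.48 in wild-type lungs 11, 12 and 13. Knockout 1 was the highest of all, and the lung of wild type 13 lay between knockouts 1 and 11. The difference was 1.26 (SE 0.90, interval -0.92 to 3.44), and 0.53 (SE 0.37, interval -0.40 to 1.47) with scan day as a block, with 0.45 within day 1 and 0.62 within day 2. Without knockout 1 it was 0.59, without wild type 13 it was 2.02 and under array weights it was 2.30, none past the adjusted threshold in limma.

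The 3 probes of Aqp4 agree within their errors, since their genotype differences were 1.26 (SE 0.90), 0.96 (SE 0.52) and 1.15 (SE 0.63), none past the adjusted threshold in limma, which 0.00656% of all probes passed. Their differences between day 2 and day 1 were -2.19, -1.21 and -1.49, each past the threshold in the limma fit over probes, with adjusted p of 0.0158, 0.0321 and 0.0268, as for 15.8% of all probes. In the fit over genes the adjusted p of Aqp4 was 0.0245 in limma. On day 2 its level was -4.78 to -4.14, against -2.67 to -1.39 on day 1.

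Heart and smooth muscle markers moved in the same direction as Aqp4 between the days. The 5 heart muscle markers averaged -1.16 to 0.39 on day 2, against 0.84 to 3.64 on day 1, and 4 of them were lower at an adjusted p under 0.05 in limma. The 4 smooth muscle markers averaged 1.50 to 1.85 on day 2, against 3.31 to 3.52 on day 1, and 3 of them were lower by the same test. Over all genes 8.48% were lower on day 2 at that threshold. The 4 skeletal muscle markers averaged -4.63 to -0.18 on day 2, against -0.76 to 5.84 on day 1, so the days overlapped, and 0 of 4 passed the threshold. Their highest level was in knockout 1, the lung that was also highest in Aqp4. The next highest, at -0.18, was in wild type 12, the lung lowest in Aqp4 at -4.78. The part of muscle RNA in the Aqp4 levels was not tested.

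Aqp1, the water pore of lung capillaries, measured 5.22, 5.31 and 4.75 in knockout lungs 1, 11 and 12, against 4.68, 4.58 and 5.17 in wild-type lungs 11, 12 and 13. The groups overlapped, and the difference was 0.29 (SE 0.25, interval -0.31 to 0.89), and 0.11 (SE 0.13) with scan day as a block. It was 0.56 under array weights, with an adjusted p of 0.231 in limma, and 0.17 to 0.47 with 1 lung left out. Between the days Aqp1 differed by -0.53 (SE 0.13), with an adjusted p of 0.0671 in limma, and with median scaling by -0.22. The 8 endothelial markers averaged 3.50 to 3.57 on day 2, against 3.79 to 3.89 on day 1, but their median difference was only -0.10. Of the 8 only Tie1, at -1.34, passed the adjusted threshold in limma, beside 10.5% of all genes. Kdr differed by -0.96, while Tek, at 0.21, and Vwf, at 0.14, had higher means on day 2. The part of endothelial RNA in the Aqp1 levels was not tested.

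Set side by side, more of these genes separated by scan day than by genotype. The days did not overlap for 6 of the 9 genes, where 39.0% of all genes did not, and 3 of the 9 had an adjusted p under 0.05 in limma, where 10.5% of all genes did. Cftr and Slc12a2 were higher on day 2, as were 2.04% of all genes by this test, and Aqp4 was lower, as were 8.48%. Mesothelial markers moved with the first pair, as the 4 of them averaged 0.92 to 1.49 on day 2, against -0.59 to -0.28 on day 1, all 4 past the threshold. Their part in the Cftr and Slc12a2 levels was not tested. For 5 of the 9 genes the genotype difference had 1 sign within both days.

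**Figure D4:**
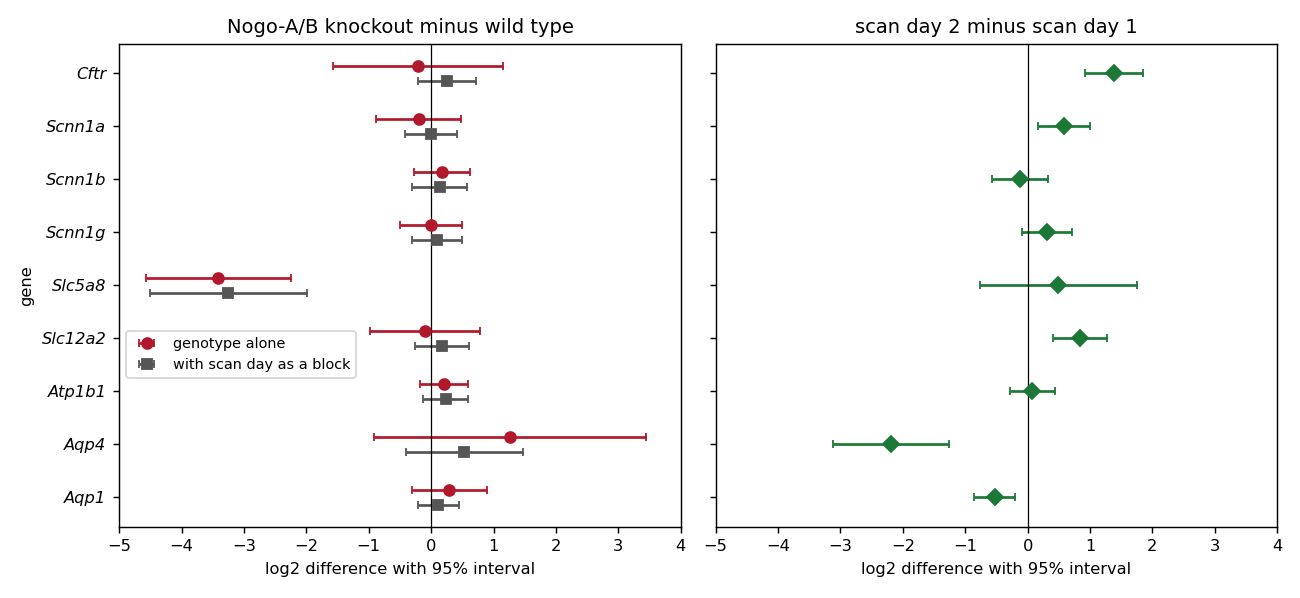
Fitted log2 differences with 95% intervals from limma for the 9 genes. The left panel gives Nogo-A/B knockout minus wild type, with genotype alone (circles) and with scan day as a block (squares), and the right panel gives scan day 2 minus scan day 1 with genotype in the model. On the left the intervals of Slc5a8 alone stay clear of 0, at -4.57 to -2.25 without the block. Its probe passed the filter through the wild-type lungs alone, so these intervals are no support for a difference. On the right Cftr and Aqp4 lie farthest from 0, at 1.39 and -2.19.

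The second question was whether the wider transport pathway differed, read from 7 lists of related genes that excluded the 9. Of 114 genes tested, 64 had lower and 50 higher means in the knockout, 0 reached an unadjusted p under 0.05 (0.0%, beside 0.958% of all genes), and 0 passed the adjusted threshold in limma. Among 16 genes of sodium absorption and its control 8 were lower and 8 higher, with a median of 0.01. Those with the smallest p were Nr3c2, the mineralocorticoid receptor, at -0.43 (SE 0.20), the kinase Wnk4 at 0.36 (SE 0.19), Hsd11b2, which shields that receptor from glucocorticoid, at 0.38 (SE 0.22), and the membrane protease St14 at 0.26 (SE 0.15). The 12 other sodium pump subunits were 6 lower and 6 higher, with a median of 0.01, among them the pump regulator Fxyd1 at 0.53 (SE 0.30).

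Of 30 genes of chloride and bicarbonate transport 19 were lower and 11 higher, with a median of -0.06. Among those with the smallest p were the chloride and proton exchanger Clcn3 at -0.30 (SE 0.17), the sodium-bicarbonate cotransporter Slc4a4 at -0.41 (SE 0.23) and the sodium-proton exchanger Slc9a2 at 0.44 (SE 0.27). Clca1, a protein secreted with mucus that was named after its values were seen for its distance from the rest, measured -9.11, -1.79 and -6.36 in knockout lungs 1, 11 and 12, against -2.41, -3.39 and -3.22 in wild-type lungs 11, 12 and 13. The groups overlapped because knockout 11 was the highest of all 6, and only that 1 of 3 knockout arrays was well above background. Among 11 potassium channel genes 6 were lower and 5 higher, led by the calcium-activated channel Kcnn4 at 0.29 (SE 0.18). The 24 genes of purinergic and cAMP signalling were split 12 lower and 12 higher, led by the adenylyl cyclase Adcy5 at -0.35 (SE 0.20).

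The list of monocarboxylate and sodium-coupled glucose carriers did not share the difference of Slc5a8. Of its 15 genes, which include partner proteins of the carriers, 9 were lower and 6 higher, with a median of -0.08. The one with the smallest p was Slc16a11 at 0.48 (SE 0.25), and Slc5a12, of the same family as Slc5a8, differed by 0.19 (SE 0.53). Bsg, which escorts monocarboxylate carriers to the membrane, differed by 0.26 (SE 0.26). Among the 6 other aquaporins 4 were lower and 2 higher, and the widest was Aqp9, a pore for water and small solutes known in leukocytes, at -1.41 (SE 0.83). It differed by 0.36 within day 1 and by -2.65 within day 2.

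Between scan days 7 of the 114 genes passed the adjusted threshold in limma, or 6.14%, beside 10.5% of all genes. Higher on day 2 were the pump subunit Atp1b3 by 0.81, the scaffold Pdzk1 by 1.47, and the carriers Slc16a1 by 1.35 and Slc16a4 by 0.84. The potassium channel Kcnj15 had a difference of -1.36, the potassium channel subunit Kcnmb1 one of -1.09 and the phosphodiesterase Pde4d one of -1.47.

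**Figure D5:**
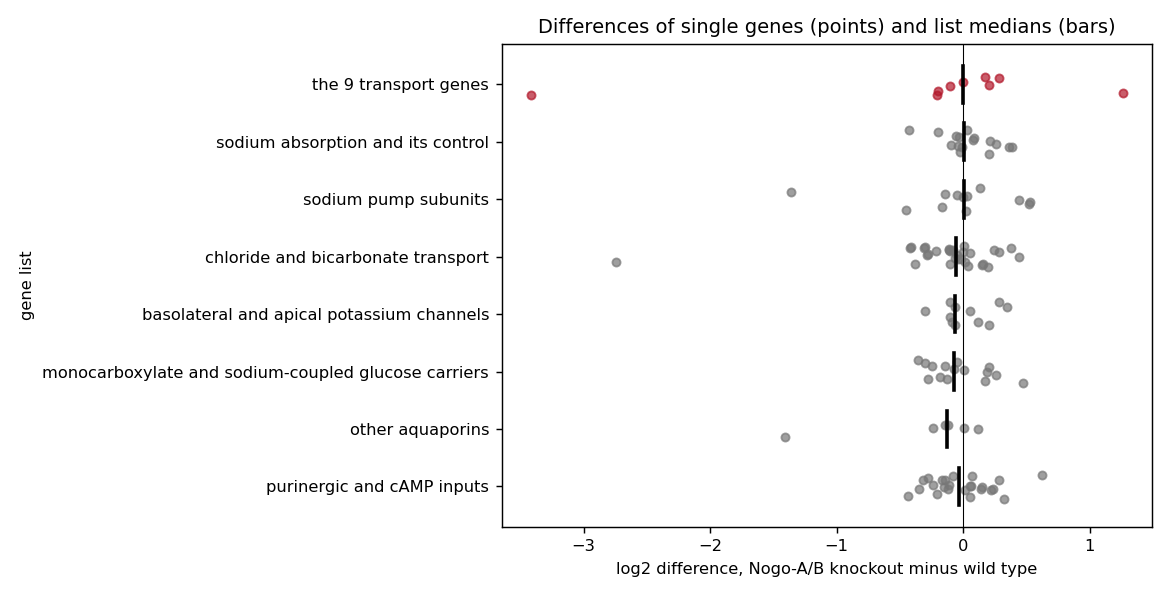
Log2 differences, Nogo-A/B knockout minus wild type, of the 9 transport genes (top row) and of 114 related genes in 7 lists, with the gene list on the vertical axis, a point for each gene and a bar at each list median. The medians lie between -0.13 and 0.01, and Slc5a8, at -3.41, is the leftmost point of the top row.

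Genes whose profile over the 6 lungs lay closest to a member were looked up for the 3 members with an SD above 0.5 over the 6 lungs, as the smallest root mean square distance between mean-centred log2 profiles. For Cftr these were the complement gene C2 (distance 0.14), 2010320H13Rik (0.14) and the proton pump subunit Atp6v0a4 (0.15). For Aqp4 they were Filip1 (0.20), the muscle filament gene Des (0.21) and the transcript ENSMUST00000076113 (0.21). For Slc5a8 the closest lay farther away, Cyp4a12a at 0.66, Akr1c18 at 0.70 and LOC233005 at 0.76. Cyp4a12a, a cytochrome P450 with close copies that its probe may also read, measured -5.24, -5.83 and -5.73 in knockout lungs 1, 11 and 12, against -2.86, -3.37 and -2.95 in wild-type lungs 11, 12 and 13. Its groups did not overlap, as for 1.47% of all genes in the lower direction. It was picked for its closeness to Slc5a8, so nothing is read from this separation. It was above background in all 6 lungs. These distances are descriptions over 6 lungs that share scan days.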

How the data were processed

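Per the labels' protocols, lung RNA was amplified with Cy3-labelled nucleotide, and each of the 6 samples went on an Agilent array. For each spot the deposited scanner files give an intensity, a processed signal that was background-subtracted but not scaled between arrays, per the file headers, made with Feature Extraction 9.5.1.1 (the submitters' processing notes name 9.1). The authors' series matrix holds log2 values with medians near 8.09 in each column, its scale being read from its values and its making not given in the sources used here. It ranked probes like the median spot signal (Spearman correlation of 0.99996 to 0.99998 across probes). Coordinates are those of the array files, build mm7.

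Without control spots and spots flagged as outliers, and with repeated spots averaged, 41144 probes remained. Processed signals were divided by the 75th percentile of their array and taken to log2. A probe was kept if called above background in 3 or more of the 6 lungs, counted over both groups together, and the brightest such probe stood for its gene. The members were found by the array's own gene names. For the fit over all genes, 32691 probes were named through a RefSeq table (GRCm38), and 8453 kept the name in the array files. A group at background has only a bound, the bright group's mean against the higher of the dim signal and the lowest signal detected on each array. Tests were two-sided moderated fits in limma 3.58.1 under R 4.3.3 (eBayes after lmFit), with p-values adjusted by Benjamini and Hochberg's method over all genes or all probes. Scripts were tested on simulated data. The p-values rest on the spread between the lungs of a group, which the design describes as biological replicates. In the main fit, which has no block, that spread includes differences between scan days, as each group held lungs of both days.

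The members and lists were chosen with earlier results of these data known. Named were all members, up to 4 genes of each list with the smallest p, and the 3 genes closest in profile to each variable member. Some of the genes named by this rule are not reported here. Genes that separated scan days were named in addition, after their values were seen. Slides and scan days were read from the files. Whether same-numbered lungs pair could not be told. Their deviations from the group means correlated at -0.244 for number 11, scanned on different days, and at 0.418 for number 12, scanned on the same day. Every pair of a knockout and a wild-type lung was positive within a day and negative across days, whatever its numbers. The labels give no covariate, so the main fit has no block. Alternatives changed scaling, background correction, filter, variance model, array weights, blocks and the probe rule, or left out 1 lung.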

Additional observations from a re-analysis of the deposited data

How the results depend on the processing

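Slc5a8 kept its direction in all 19 alternatives that could be run, from -3.94 to -1.28 on the log2 scale. In fits with more than 1 lung in each group, limma gave an unadjusted p of 1.40e-04 to 0.0198 and an adjusted p of at least 0.231. Its probe had passed the filter through the wild-type lungs alone, and the alternatives reuse the same 6 lungs. Neither the direction nor these p-values are therefore support for a difference. Slc5a8 was not tested where all 6 arrays had to be above background. Leaving out 1 lung gave -3.80 to -2.95. Of the 9 genes 0 passed the adjusted threshold in any alternative. Scnn1g turned sign with the authors' values (0.020), scan day as a block (0.10), day 2 alone (0.25), slide as a block (0.049) and the replicate block (0.088), and ranged from -0.16 to 0.14 with 1 lung left out. Slc12a2 turned with scan day (0.17) or slide (0.14) as a block and on day 2 alone (0.40), and ranged from -0.46 to 0.12. Cftr turned with scan day (0.25) or slide (0.095) as a block and within day 1 (0.30) and day 2 (0.21), and ranged from -0.69 to 0.15. Scnn1b was -0.11 on day 1 alone and Scnn1a 0.16 on day 2 alone, and with 1 lung left out they ranged from 0.07 to 0.29 and from -0.45 to -0.01. Under array weights Aqp4 was 2.30 (p of 0.00549) and Aqp1 0.56 (p of 0.0154) before adjustment in limma, both with an adjusted p of 0.231. The cause of these turns was not tested.

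Over all genes 0 passed in the main setting, against 2 with median scaling, array weights or slide as a random block, 1 with normexp, the authors' values or a trended robust variance, and 0 to 1 with 1 lung left out. Over all probes 2 passed, against 5 with slide as a random block, 4 with array weights, 1 with quantile normalization or no filter, 0 with the filter on all 6 arrays, within day 1 or day 2 alone or with the replicate block, and 0 to 1 with 1 lung left out. With the replicate number as a block Slc5a8 was -3.42 (SE 0.77) and 0 genes passed.

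Between scan days 2129 genes passed, 1717 lower and 412 higher on day 2. With median scaling 3610 passed, 1450 lower and 2160 higher, and the median difference of all genes was 0.34, beside 0.04 in the main setting. The cause of the higher count was not tested. The split was 1595 lower and 1198 higher with quantile normalization, 1645 and 1283 with normexp, and 1673 and 1308 in the authors' values. Cftr, Slc12a2 and Aqp4 passed between days under each of these 4. Scnn1a passed with median scaling (0.89). Aqp1 passed with quantile normalization (-0.60), normexp (-0.61) and the authors' values (-0.60), but was -0.22 with median scaling (adjusted p of 0.360 in limma). Dim probes, such as those of Slc5a8 in the knockout, are limited by the background, and 3 lungs a group limit the rest.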
